A study of Drosophila melanogaster with 2 samples.

Results

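The next-ranked peaks were 3144 of the 30000 candidate regions listed for the pooled anti-GFP immunoprecipitation of Bteb2-eGFP from fruit fly embryos. They were chosen by their signal. They hold the ranks after 3350 and up to 6700 of the pooled list by the authors' peak signal, without the 206 peaks in that range that share a base with the authors' optimal set, the peaks kept as reproducible between replicates. They were set against the 3350 optimal peaks above them and the 22597 lower-ranked peaks, which are the remaining ranks without overlap with an optimal peak. The authors label the pooled list as peaks and background, so the lower-ranked peaks can include background. The study has 1 group of Drosophila melanogaster embryos, strain Bteb2-GFP, both sexes together, collected at 4 to 20 h. The transgenic line carries Bteb2, the product of Klf15, with GFP at its C-terminus. Chromatin was sonicated to 200 to 800 bp. The 2 libraries are labelled biological replicates 1 and 3. Whole embryos were used, so each region is an average over all cell types, and binding in few cells and weak binding in many cannot be told apart.

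Klf15 belongs to the KLF and SP family, whose zinc fingers bind GC-rich and CACCC-type boxes at promoters and enhancers. Candidate lists of this kind are ranked by signal, and an analysis of reproducibility between replicates sets how far down the list is kept. Peaks just past that limit can hold weaker binding, binding in fewer cells, or regions that many immunoprecipitations recover. Peak lists of controls and of other GFP-tagged factors were not analysed here, so these were not told apart.

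Sequences of 50 bp on each side of the summit show the elements that the comparisons turned on. Each is from a strong next-ranked peak that holds the element. Capitals mark the matches, and all are on the plus strand of dm6 (NCBI Release 6), 5′ to 3′. The first is at the promoter of HUWE1, a ubiquitin ligase, at chrX:15712497-15712597, with a DRE (TATCGATA), the replication-related site that DREF binds. The second is at mbt, a p21-activated kinase, at chrX:16610593-16610693, with motif 1 (GGTCACACT), the site of M1BP. The third lies upstream of Atpalpha, the sodium pump's alpha subunit, at chr3R:20948109-20948209, with the core of the insulator protein CTCF (AGGTGGCGC, here on the minus strand). The fourth is intergenic near CG6149, at chr3L:11431376-11431476, with 4 overlapping matches to a KLF and SP box (CCNCNCCC, on the minus strand).
HUWE1, DRE: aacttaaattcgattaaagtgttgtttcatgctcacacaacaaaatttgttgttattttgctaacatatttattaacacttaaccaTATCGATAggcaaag
mbt, motif 1: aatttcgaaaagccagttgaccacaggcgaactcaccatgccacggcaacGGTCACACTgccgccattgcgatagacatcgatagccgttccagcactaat
Atpalpha, CTCF site: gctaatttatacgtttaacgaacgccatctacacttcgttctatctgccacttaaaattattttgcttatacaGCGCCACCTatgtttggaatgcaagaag
CG6149, KLF and SP box: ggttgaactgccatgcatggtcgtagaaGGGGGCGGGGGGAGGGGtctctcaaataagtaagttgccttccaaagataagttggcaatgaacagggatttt

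The next-ranked peaks formed a narrow band of signal just under the optimal set, and nearly all of them were listed in both libraries. Peak scores, ranks and q-values are the authors', and those of the next-ranked peaks are given as description because they come from the reads that chose them. Their pooled signal ran from 42.2 to 65.9 (median 50.7), against 65.9 to 1369 (median 98.8) in optimal and 15.4 to 42.2 (median 21.6) in lower-ranked peaks. Their −log10 q-value ran from 2.12 to 3.95 (median 3.31), and 1027 of them (32.7%) had the list's highest value, which all optimal peaks have. The median was 0.423 in lower-ranked peaks, of which 267 (1.18%) reached 2. At the upper edge the strongest next-ranked peak, at the promoter of the flotillin gene Flo2 (chrX:14839702-14840117), and the weakest optimal peak, at Gbs-76A, both had a signal of 65.9. At the lower edge the last next-ranked peak, intergenic near lncRNA:CR43298, and the first lower-ranked one, in an intron of pnt, both had 42.2. Both edges are cuts between neighbouring ranks of a list sorted by signal, so near-equal signals there follow from the rule.

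Of the 3144 next-ranked peaks, 3067 (97.6%) shared a base with a peak of both replicate lists. A further 68 were found in replicate 1 alone, 9 in replicate 3 alone and none in neither. The share found in both was 99.9% in optimal and 49.7% in lower-ranked peaks. With summits required within 100 bp in both lists, the shares were 80.9% in next-ranked, 94.3% in optimal and 25.1% in lower-ranked peaks. Among the strongest 3350 peaks of both libraries were 24 next-ranked peaks, while 317 were so ranked in replicate 1 only, 465 in replicate 3 only and 2338 in neither. Their median rank was 5202 in replicate 1 (range 1798 to 25355) and 5484 in replicate 3 (range 1075 to 29543). Across the 3067 regions the replicate signals had a Spearman rho of -0.354. This is a description across regions that were chosen for a fixed band of pooled signal, and both libraries enter the pooled signal. The Flo2 promoter peak, for instance, ranked 2339 in replicate 1 and 10563 in replicate 3. The largest gap in rank was at an intron of toc, with 3538 in replicate 1 and 29527 in replicate 3. The intergenic peak nearest Jhbp1 was strong in both, at 2476 in replicate 1 and 2118 in replicate 3.

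**Figure D1:**
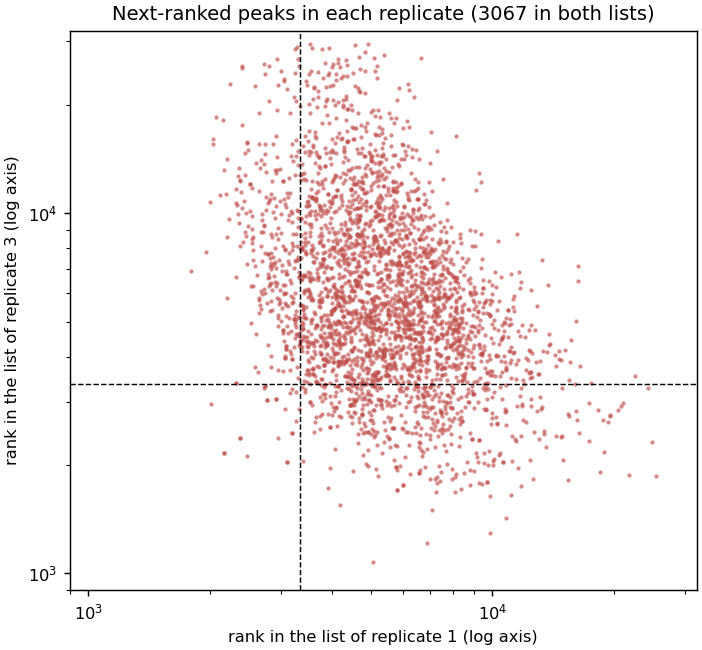
Each point is a next-ranked peak found in both replicate lists (3067), by its rank in replicate 1 (x axis, log scale) and in replicate 3 (y axis, log scale); dashed lines mark rank 3350. Most points lie past rank 3350 on both axes, and 24 peaks are among the strongest 3350 on both.

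Some next-ranked peaks overlapped the same replicate peak. A replicate rank is that of the best-ranked replicate peak that shares a base with the next-ranked peak. In 67 neighbouring pairs the peaks shared a base with each other, 127 next-ranked peaks shared a replicate 1 peak with another one, and 131 shared a replicate 3 peak. The Act5C promoter, of a cytoplasmic actin gene, held a pair with summits at -115 bp and -428 bp from the same start. Both shared a base with a replicate 1 peak of rank 2372 and a replicate 3 peak of rank 2382. The gene ush, whose product binds GATA factors, held such a pair, overlapping replicate peaks of rank 2165 and 2157. Another pair, at atos, overlapped replicate peaks of rank 2770 and 3022. These pairs make 6 of the 10 next-ranked peaks whose worse replicate rank was best.

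Promoters held most of the next-ranked peaks, fewer than of the optimal and more than of the lower-ranked ones. A summit counted as promoter when a transcription start site (TSS) of the annotation was no more than 1000 bp away, which took in 1926 next-ranked summits (61.3%, exact 95% interval 59.5 to 63.0), against 2294 optimal (68.5%) and 9441 lower-ranked ones (41.8%). The odds ratio was 0.728 against optimal peaks (95% interval 0.657 to 0.806; Fisher's exact test, Benjamini-Hochberg adjusted p = 7.79e-09) and 2.20 against lower-ranked peaks (2.04 to 2.38, adjusted p = 7.04e-93). Evenly spaced genome positions gave 23.6%. At close range the next-ranked share was near the optimal one: a TSS lay within 100 bp in 28.6% of next-ranked, 28.0% of optimal and 10.6% of lower-ranked summits. Within 250 bp the share was 42.0% in next-ranked, 49.4% in optimal and 19.1% in lower-ranked summits. All Fisher's tests here run over peaks, as if each were independent, and none runs over samples.

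Away from promoters the next-ranked summits lay in introns and between genes, and almost never in coding exons. Introns held 867 next-ranked summits (27.6%), against 23.5% of optimal (odds ratio 1.24, adjusted p = 3.49e-04 by Fisher's exact test) and 35.8% of lower-ranked ones (0.683, adjusted p = 5.79e-20). Of the intronic summits 574 (66.2%) lay in a first intron, against 70.4% in optimal and 59.1% in lower-ranked peaks. Intergenic summits numbered 297 (9.45%), against 6.75% in optimal (1.44, exact test, adjusted p = 2.45e-04) and 12.3% in lower-ranked peaks (0.742, adjusted p = 2.78e-06). These are shares of all summits, so they also move with the promoter share. Of summits outside promoters alone, introns held 71.2% in next-ranked, 74.4% in optimal and 61.5% in lower-ranked peaks. Intergenic sequence held 24.4% of them in next-ranked, 21.4% in optimal and 21.2% in lower-ranked peaks. Both intron differences, and the intergenic one against lower-ranked peaks, thus turn there, which was not tested. Coding exons outside promoters held 2 next-ranked summits (0.0636%), in nahoda and toc. They held 4 optimal and 1235 lower-ranked summits (5.47%), with an odds ratio of 0.0110 against lower-ranked peaks (0.00275 to 0.0441, exact test, adjusted p = 1.39e-67). The 3′ UTR share was 0.859% in next-ranked, 0.716% in optimal and 3.78% in lower-ranked peaks, called only in the last comparison (0.221, exact test, adjusted p = 3.88e-22). Called means an adjusted p under 0.05, which 3 of 7 location classes met against optimal (42.9%) and 5 of 7 against lower-ranked peaks (71.4%).

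The shares did not move at the same ranks. In bins of 1675 ranks the promoter share was 73.0% and 64.0% in the optimal bins, 61.2% and 61.3% in the next-ranked bins, then 56.2% and 50.2% in the bins just below. The coding exon share stayed at 0.0638% and 0.0635% in the next-ranked bins and was 0.828%, 1.33% and 2.75% in the next 3 bins. It reached 9.48% near the end of the list, where evenly spaced positions gave 10.6%. Ranked by replicate 1 alone, the same range of ranks held 2766 peaks, of which 62.0% were promoter and 0.217% coding exon summits. Ranked by replicate 3 alone it held 2720, of which 56.7% were promoter and 0.551% coding exon summits.

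**Figure D2:**
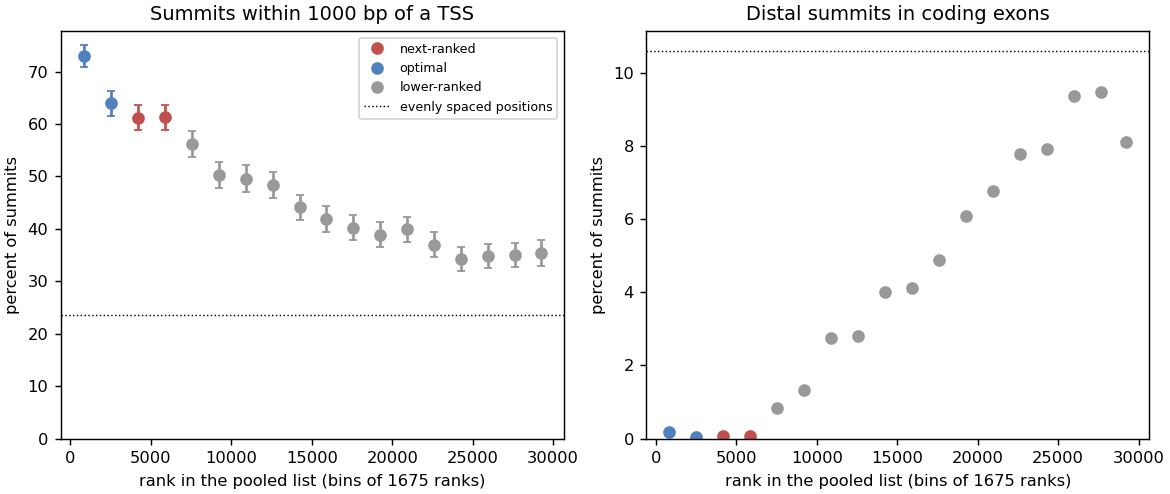
Percent of summits within 1000 bp of a TSS (left, with exact 95% intervals) and in coding exons outside promoters (right), by rank in bins of 1675; dotted lines are evenly spaced genome positions. The next-ranked bins (red) hold 61.2% and 61.3% promoter summits and 1 coding exon summit each, and coding exons become more frequent only in the lower-ranked bins.

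At promoters the next-ranked summits lay upstream of the start site less often than optimal ones and more often than lower-ranked ones. Of 1926 promoter summits, 1247 (64.7%) were upstream of the nearest TSS, against 77.5% of optimal (odds ratio 0.533, 95% interval 0.465 to 0.610, Fisher's exact test p = 5.74e-20) and 48.5% of lower-ranked ones (1.95, 1.76 to 2.16, p = 6.54e-39). The median position was -46 bp in next-ranked, -90 bp in optimal and 10 bp in lower-ranked peaks. Divergent promoters, where a minus-strand TSS lies left of a plus-strand TSS and both are within 1000 bp, held 650 next-ranked promoter summits (33.7%). The shares were 43.1% in optimal (0.672, exact test p = 5.02e-10) and 21.4% in lower-ranked peaks (1.88, p = 1.16e-29). The upstream share was 67.7% in the stronger and 61.8% in the weaker 1675 ranks of the band. It was 58.6% in peaks ranked by replicate 1 alone and 64.0% by replicate 3 alone.

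**Figure D3:**
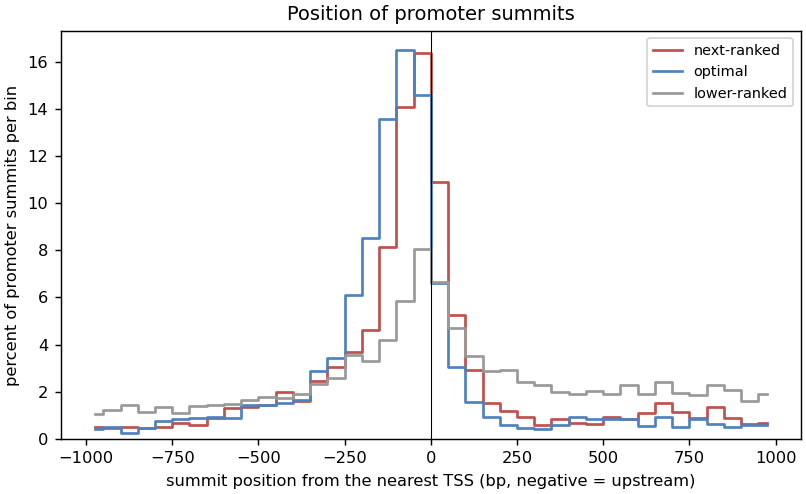
Position of promoter summits from the nearest TSS (x axis, bp, negative is upstream) as percent of each set's promoter summits in bins of 50 bp. The next-ranked curve peaks in the 50 bp before the TSS and lies above the optimal curve just downstream of it, with medians of -46 bp and -90 bp.

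The next-ranked peaks were spread over the arms without a difference on the X. Of 3130 on the X and the arms of chromosomes 2 and 3, 551 (17.6%) lay on the X, against 16.6% of optimal (odds ratio 1.07, 0.941 to 1.22, Fisher's exact test p = 0.306) and 17.4% of lower-ranked ones (1.01, 0.920 to 1.12, p = 0.782). They lay a median of 7134 bp from the nearest optimal summit (range 219 to 1511817 bp). An optimal summit was within 1000 bp of 242 of them (7.70%) and of 5.54% of lower-ranked peaks. It was over 10000 bp away from 1263 next-ranked peaks (40.2%) and from 46.6% of lower-ranked ones. The rule left out peaks overlapping an optimal one, which bears on the first of these shares.

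Sequence elements of housekeeping promoters and insulators were more frequent at next-ranked than at lower-ranked summits, a difference called at promoter summits and not at distal ones for DRE, motif 1, the CTCF core and CGATA. Of 26 motifs searched on both strands up to 100 bp from the summit, 13 were called (50.0%), 9 more frequent and 4 less frequent at next-ranked summits. DRE was in 5.60% of next-ranked windows against 1.62% of lower-ranked ones (odds ratio 3.59, interval 2.99 to 4.32, adjusted p = 1.70e-34 by Fisher's exact test), and motif 1 in 3.44% against 0.881% (4.00, 3.16 to 5.08, adjusted p = 1.30e-24). The sites at HUWE1 and mbt printed above are such windows. CTCF's core was in 24 next-ranked windows (0.763%) against 0.283% (2.71, exact test, adjusted p = 4.16e-04). In 24 of 28 matches (85.7%) it lay within 50 bp of the summit, as at Atpalpha. The same held for 13 of 21 matches in optimal (61.9%) and 48 of 68 in lower-ranked peaks (70.6%), a difference that was not tested. CGATA, the core bound by the boundary protein BEAF-32, which DRE contains, was in 32.7% against 24.4% (1.51, exact test, adjusted p = 7.57e-22). The TATA box TATAAA was in 30.6% against 25.7% (1.27, exact test, adjusted p = 5.53e-08). Smaller ratios were called for GAGAGAG of the GAGA factor (1.42), the Su(Hw) core TGCATAC (1.31), the forkhead site TGTTTAC (1.28) and the E-box CAGCTG (1.18). The Su(Hw) core was called in neither replicate list alone (1.15 in replicate 1, 1.03 in replicate 3), and GAGAGAG (1.17) and CAGCTG (0.983) were not called in replicate 3 alone.

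Among promoter summits the ratios against lower-ranked peaks were 2.91 for DRE, 2.87 for motif 1, 2.89 for the CTCF core and 1.73 for CGATA, all called. Among distal summits they were 1.29 for DRE, 3.19 for motif 1 and 2.17 for the CTCF core, none of them called. CGATA was in 20.7% of next-ranked and 21.7% of lower-ranked distal windows (0.944), and the ratio of CAGCTG was 0.828 there, neither called. The TATA box (1.39), the Su(Hw) core (1.67) and the forkhead site (1.47) were called among distal summits. Whether the ratios differ between promoter and distal summits was not tested.

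The box of Klf15's own family was less frequent at next-ranked summits than lower down. CCNCNCCC was in 4.33% of next-ranked windows, against 7.69% of lower-ranked windows (odds ratio 0.543, interval 0.454 to 0.649, adjusted p = 3.58e-12 by Fisher's exact test) and 8.47% of evenly spaced genome windows. The GC box GGGCGGG, which can overlap it, was in 0.891% against 1.65% (0.535, exact test, adjusted p = 0.00181). GCCAT, the core of Pho, a Polycomb recruiter, was in 26.8% against 32.4% (0.764, exact test, adjusted p = 8.78e-10), and the Tead site CATTCC in 6.65% against 8.56% (0.761, adjusted p = 6.47e-04). The GC content of the windows was 38.1% ± 7.45 in next-ranked, 36.1% ± 6.62 in optimal and 40.8% ± 8.99 in lower-ranked peaks (SD over peaks). Within strata of GC content and promoter class, DRE (2.34), motif 1 (2.64), CTCF (3.11), CGATA (1.34), GAGAGAG (1.58), CAGCTG (1.33) and Pho's core (0.873) were still called against lower-ranked peaks, while the KLF and SP box (0.796), the GC box (0.809), TATA (1.03), the Su(Hw) core (1.19), the forkhead site (1.15) and the Tead site (0.852) were not. Against the 3350 ranks just below the band alone, DRE (1.91), motif 1 (1.61), CGATA (1.26) and the KLF and SP box (0.730) were called.

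Against the optimal peaks 5 of 26 motifs were called (19.2%), with smaller ratios. Motif 1 was in 3.44% of next-ranked and 2.09% of optimal windows (odds ratio 1.67, interval 1.23 to 2.26, adjusted p = 0.0104 by Fisher's exact test). The downstream promoter element core CGGACG was in 3.15% of next-ranked and 1.91% of optimal windows (1.67, exact test, adjusted p = 0.0104), and the KLF and SP box in 4.33% of next-ranked and 3.07% of optimal ones (1.43, adjusted p = 0.0429). TATA was less frequent, in 30.6% of next-ranked and 34.2% of optimal windows (0.846, exact test, adjusted p = 0.0104), and so was the Sox core ACAAT, in 46.4% of next-ranked and 51.5% of optimal windows (0.814, adjusted p = 8.75e-04). DRE did not pass, with 5.60% of next-ranked and 5.01% of optimal windows (1.12, 0.904 to 1.40, exact test, adjusted p = 0.695). Within GC and promoter strata motif 1 alone was called, with a Cochran-Mantel-Haenszel odds ratio of 1.72. Motif 1 was called in neither replicate list alone, with 1.40 in replicate 1 and 1.15 in replicate 3, and no motif was called in replicate 3 alone. At promoters, motif 1 was in 5.35% of next-ranked and 2.96% of optimal windows, and away from them in 0.411% of next-ranked and 0.189% of optimal windows. DRE was in 8.72% of next-ranked and 7.15% of optimal promoter windows.

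**Figure D4:**
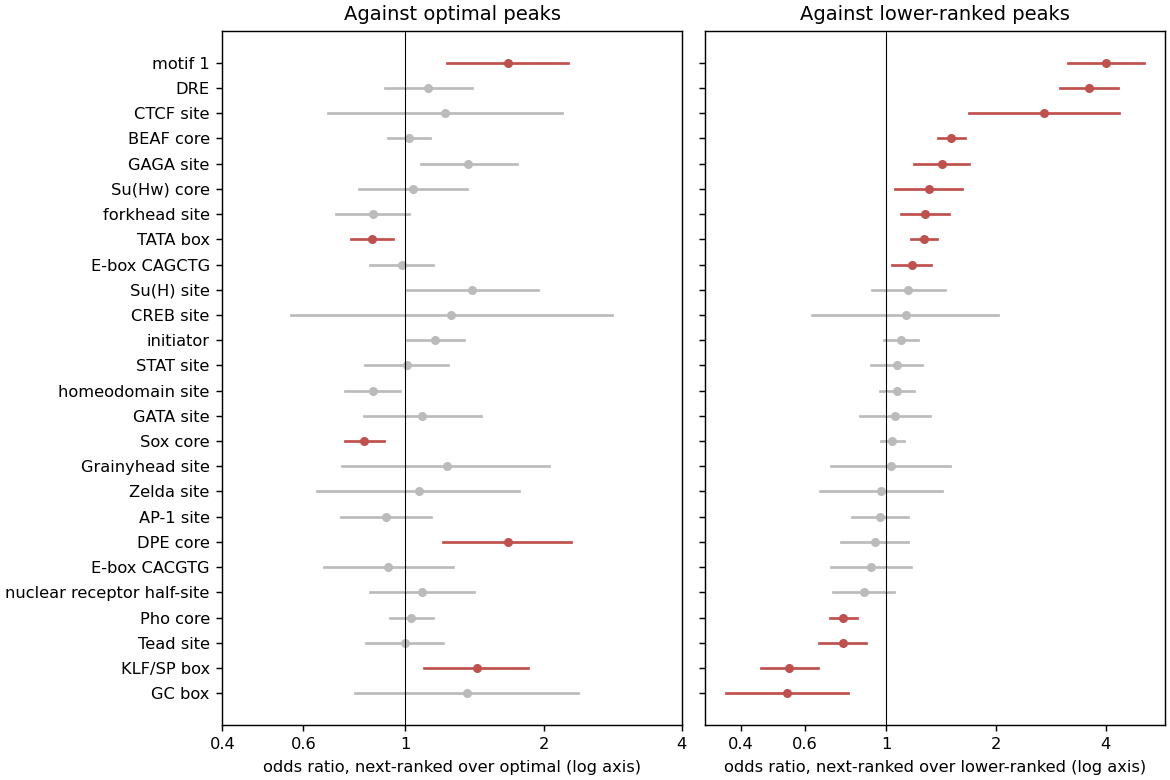
Odds ratios (log axis, with 95% intervals) of 26 motifs at next-ranked over optimal windows (left) and over lower-ranked windows (right); red marks an adjusted p under 0.05. Motif 1, DRE and the CTCF site have the highest ratios against lower-ranked peaks (4.00, 3.59 and 2.71), and the KLF and SP box lies above 1 on the left (1.43) and below 1 on the right (0.543).

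Words of 6 bases, 10 in number, that an earlier search of the optimal peaks had picked are given without a test. Their shares in next-ranked windows lay between those of lower-ranked and optimal windows for 7 of them. TTAAAA was in 42.3% of next-ranked, 49.5% of optimal and 32.5% of lower-ranked windows, and ACACTG was in 17.0% of next-ranked, 19.9% of optimal and 10.2% of lower-ranked ones. CGATAG was in 12.9% of next-ranked windows, 12.6% of optimal and 5.92% of lower-ranked ones. Genome windows held it in 4.39%.

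Of the 25 strongest next-ranked peaks, 13 were promoter peaks. They included bnl (chr3R:19836663-19837078, signal 65.8), the FGF ligand that guides tracheal branching, with a summit 54 bp upstream of its TSS. That peak ranked 2228 in replicate 1 and 9655 in replicate 3. The CG4360 and Sirt2 promoter pair (chr3R:20327906-20328321), Sirt2 being a deacetylase, ranked 3188 in replicate 1 and 3253 in replicate 3. Other promoter peaks lay at Pym, a partner of the exon junction complex, at Pbp95, of the complex that activates snRNA genes, and between CG42613 and Mpc1, a subunit of the mitochondrial pyruvate carrier. The strongest intronic peaks lay in luna, a KLF gene, in cnc, a relative of Nrf2, and in Rip11, whose product binds Rab11. The seventh strongest lay in mgl, which encodes an endocytic receptor of nephrocytes. In 2 of the strongest 10 intronic peaks, the summit was within eIF5B, a translation initiation factor, and 1 of them was nearest the TSS of sty, an inhibitor of receptor tyrosine kinases, at -13707 bp. The strongest intergenic peaks were nearest lncRNA:CR45539 and, on chromosome 4, the Ski family gene fuss. The peak nearest ab, a BTB zinc finger gene, ranked 9880 in replicate 1 and 1296 in replicate 3.

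Next-ranked promoter summits added 1864 protein-coding genes to those with an optimal one. A gene was counted when any of its TSSs had a summit no more than 1000 bp away. That held for 2240 of 13968 protein-coding genes with next-ranked summits (16.0%) and for 2848 with optimal summits (20.4%), and 376 genes had both. A further 4008 genes had a lower-ranked summit only, and 5248 had none of the pooled list. Of all 18277 genes, 2595 (14.2%) had a next-ranked promoter summit. A promoter summit counted for 2 genes in 34.7% and for 3 or more in 6.44% of next-ranked peaks, so neighbouring genes share peaks. The gene lists below are given by their counts beside these shares, with no test. The rule left out peaks overlapping an optimal one, which bears on the next-ranked share of lists with many optimal summits.

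Among the lists examined, the Wnt, Hedgehog and receptor tyrosine kinase lists had the highest next-ranked shares, taken over all genes of a list. The order differs among genes without an optimal promoter summit. Of such Wnt genes 8 had a next-ranked summit, 12 a lower-ranked one only and 1 none. For cytoplasmic ribosomal protein genes these counts were 13, 8 and 3. Of 26 Wnt pathway genes, 11 (42.3%) had a next-ranked promoter summit and 5 (19.2%) an optimal one. The strongest next-ranked were at arr, a co-receptor (signal 65.6), at the ligand gene Wnt6 (60.8), at pan, the TCF factor of the pathway (60.0, 1 bp from a TSS), and at nkd, a feedback inhibitor (56.7). The arr peak ranked 3470 in replicate 1 and 3408 in replicate 3, and the nkd peak 2731 in replicate 1 and 7748 in replicate 3. The segmentation ligand wg had a summit 211 bp upstream (48.7) that ranked 4372 in replicate 1 and was not in the list of replicate 3. Of 13 Hedgehog pathway genes 5 (38.5%) had a next-ranked summit, against 3 with an optimal one. They include the receptor gene ptc (65.0), disp, which releases the ligand (63.5), cos, a kinesin-like scaffold (58.9), and boi, a co-receptor (56.8).

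Of 39 genes of receptor tyrosine kinases and Ras, 14 (35.9%) had a next-ranked and 9 (23.1%) an optimal promoter summit. After bnl came aop, an ETS repressor (63.9), Pvr, a receptor of the PDGF and VEGF type (63.5), and pnt, an ETS activator (59.8). The Pvr peak ranked 2810 in replicate 1 and 6377 in replicate 3. Of 21 Dpp pathway genes 7 (33.3%) had a next-ranked summit, among them wit, a type II receptor (59.5), shn, a DNA-binding cofactor (54.2), and Smox, a Smad (54.0). The Notch list had 9 of 28 (32.1%), with the strongest at kuz, a protease (56.8), and neur, a ubiquitin ligase (55.0). For Notch genes the optimal count was higher, at 11 (39.3%). The next-ranked intervals for Dpp (14.6 to 57.0%) and Notch genes (15.9 to 52.4%) include the 16.0% over all protein-coding genes. Hippo genes had 4 of 17 next-ranked (23.5%) against 9 optimal (52.9%). Their strongest next-ranked summits were at the tumour suppressors sav (65.4) and wts (61.8).

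Chromatin and hormone regulators came close to these, with intervals of 17.3 to 52.8% (chromatin) and 14.3 to 51.8% (hormone). The hormone interval includes the 16.0% over all protein-coding genes. Of 30 Polycomb, trithorax and remodeller genes 10 (33.3%) had a next-ranked promoter summit and 15 an optimal one. The strongest were Jarid2 (65.0), phol (63.8), a DNA-binding Polycomb recruiter, and the Polycomb complex members Psc (59.5) and Pc (56.2). The Jarid2 peak ranked 2207 in replicate 1 and 14164 in replicate 3. Of 26 ecdysone response and nuclear receptor genes 8 (30.8%) had one, with Hr38 (65.4), EcR, the ecdysone receptor (61.8), its partner usp (61.7) and the coactivator gene tai (56.8). Insulator and promoter factors had 4 of 20 (20.0%), at su(Hw), Clamp, BEAF-32 and mod(mdg4), against 10 with optimal summits. The BEAF-32 summit was 998 bp upstream and 48 bp upstream of its neighbour Spred.

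Genes of basic metabolism fell on both sides of the optimal limit. Of 75 mitochondrial ribosomal protein genes 23 (30.7%) had a next-ranked and 28 (37.3%) an optimal promoter summit, and 1 had both. Respiratory chain and ATP synthase genes had 22 of 86 (25.6%) against 20 (23.3%), and proteasome genes 11 of 48 (22.9%) against 9 (18.8%). Cytoplasmic ribosomal protein genes had 16 of 92 next-ranked (17.4%) against 68 optimal (73.9%). Of those without an optimal summit, 13 had a next-ranked one, 8 a lower-ranked one only and 3 none. Over all protein-coding genes these counts were 1864, 4008 and 5248. Among the strongest next-ranked summits of the list were RpS3 (65.3, 32 bp downstream), RpL37-1 (64.6, 33 bp upstream) and RpS2 (63.0, 23 bp upstream). RpS2 ranked 4042 in replicate 1 and 3966 in replicate 3. Translation initiation factors had 11 of 44 next-ranked and as many optimal, and aminoacyl-tRNA synthetases 8 of 32 and as many optimal. Cell cycle and replication genes had 12 of 45 (26.7%) against 13 (28.9%), and general transcription factors with Mediator 12 of 69 (17.4%) against 21 (30.4%). Glycolytic enzymes had 3 of 15 (20.0%) against 9 (60.0%), and heat shock genes 2 of 26 (7.69%) against 7 (26.9%). The next-ranked intervals of the mitochondrial ribosomal (20.5 to 42.4%) and respiratory chain lists (16.8 to 36.1%) lay above 16.0%. Those of the other lists in this paragraph include it.

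Several lists of genes used in few tissues had few next-ranked promoter summits, beside 16.0% over all protein-coding genes. The exact 95% intervals of the cuticle and of the odorant and gustatory receptor list (0.0141 to 3.07%) lay below that share. Those of the neuronal (1.57 to 20.4%), segmentation (0.877 to 23.5%), Hox (0.211 to 38.5%) and heart (1.03 to 27.0%) lists include it. So do those of the axon guidance, immune, clock and nephrocyte lists. None of 120 cuticle protein genes had a next-ranked promoter summit (exact upper 95% limit 3.03%), and 1 of 179 odorant and gustatory receptor genes did, Gr63a, a carbon dioxide receptor. Of 40 neuronal ion channel and receptor genes 3 did (7.50%), KCNQ, slo and Ih. Segmentation genes had 2 of 28 (7.14%), opa and wg, and Hox genes with their partners 1 of 12. That was tio, a zinc finger gene related to tsh (52.3), whose peak ranked 3710 in replicate 1 and 11529 in replicate 3. No gene of the segmentation or Hox list had an optimal promoter summit. Axon guidance and adhesion genes had 16 of 72 next-ranked (22.2%) against 11 optimal (15.3%), immune genes 10 of 49 (20.4%) against 6 (12.2%), and clock genes 4 of 13 (30.8%) against 3 (23.1%). None of 8 chorion and vitelline membrane genes had either. Heart and mesoderm regulators had 2 of 24 (8.33%), mid (52.6) and Mef2 (49.9), and the nephrocyte list 5 of 18 (27.8%), among them Nup107, pyd, the slit diaphragm gene sns and mgl. The sns peak, 15 bp upstream, ranked 4610 in replicate 1 and was not in the list of replicate 3.

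RNA genes are given as counts of genes, of which neighbours can share a peak. Of 295 tRNA genes 37 (12.5%) had a next-ranked summit within 1000 bp, from 24 peaks, and 21 (7.12%) an optimal one, with none having both. Of 260 microRNA genes 26 had a next-ranked and 14 an optimal summit. Of 274 snoRNA genes 23 (8.39%) had a next-ranked and 51 (18.6%) an optimal one. Genes for lncRNAs and antisense RNAs had 207 of 2448 next-ranked (8.46%) against 211 optimal (8.62%), and snRNA genes 3 of 32 against 5. The share over all genes was 14.2% for next-ranked and 17.4% for optimal summits. A single peak (chr2R:19727120-19727535, signal 61.6) lay within 1000 bp of 3 tRNA genes for glutamate and of snoRNA:185, and ranked 2016 in replicate 1 and 2961 in replicate 3. tRNA and histone genes have near-identical copies, so peaks at them are uncertain. None of 115 histone genes had a next-ranked summit.

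**Figure D5:**
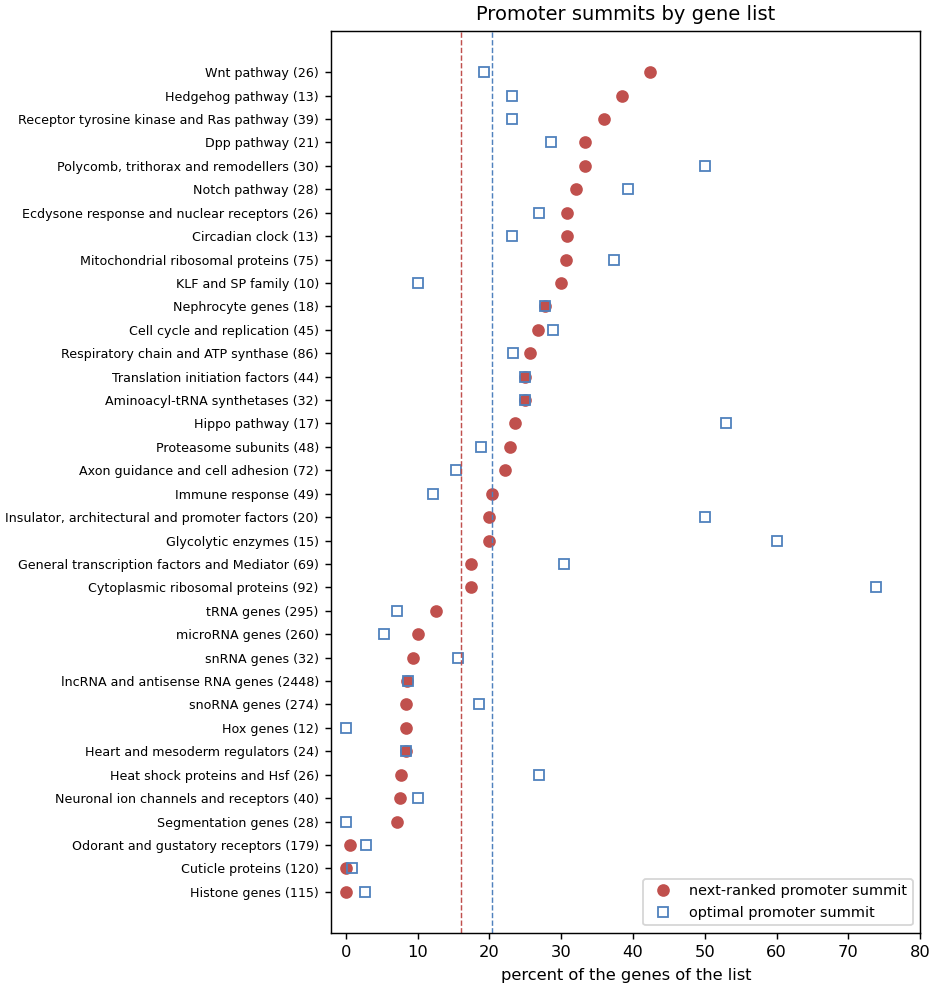
Percent of the genes in each list (number of genes in brackets) with a next-ranked (red circles) or optimal (blue squares) promoter summit; dashed lines are the shares over all protein-coding genes, 16.0% and 20.4%. The Wnt, Hedgehog and receptor tyrosine kinase lists lead for next-ranked summits, and cytoplasmic ribosomal proteins (73.9%) for optimal ones. Intervals are not drawn, and that of the Hedgehog list (13.9 to 68.4%) includes 16.0%.

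Within Klf15's own family, 3 of 10 genes had a next-ranked promoter summit. At cbt, the summit (chr2L:478790-479205, signal 65.8) lay 690 bp from a TSS and ranked 6178 in replicate 1 and 2467 in replicate 3. At Spps, an SP factor that acts with Polycomb proteins, it lay 23 bp from the TSS (chr3R:24226749-24227164, signal 60.5), ranked 3531 in replicate 1 and 6022 in replicate 3. At CG3065 it lay 205 bp away (signal 59.5), ranked 4017 in replicate 1 and 4212 in replicate 3. The gene assigned to that summit as nearest was the neighbour CG10904. Spps and CG3065 had no optimal summit within 1000 bp, while cbt had one 392 bp away. The gene luna held 3 next-ranked summits. For Klf15 itself the nearest next-ranked summit was 69262 bp away, and dar1, Sp1, btd, hkb and CG42741 had none in the gene or its promoters.

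Some genes held several next-ranked summits. Within a gene or 1000 bp of its TSSs, 2478 genes had 1, 376 had 2 and 117 had 3. The highest number was 9 in ush, 6 of them promoter summits, beside 10 optimal ones. There were 8 each in CG32264, SNF4Agamma, an AMP-activated kinase subunit, lncRNA:CR44999 and tara, 7 each in ed, lncRNA:CR44357 and sbb, and 6 each in 14 genes that include CG1677 and CG43658. Per 100 kb of gene, tara had 23.1, SNF4Agamma 10.9 and lncRNA:CR44357 2.92. CG1677 and lncRNA:CR44357 overlap, so their summits are partly shared. The gene cbt lies within ush, and the cbt promoter summit described above is among those counted for ush. Among the genes with 6, fz2, a Wnt receptor gene named after its values were seen, had no optimal summit, with 1 promoter and 5 intronic next-ranked ones.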

How the data were processed

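Anti-GFP immunoprecipitates of 2 libraries (1 group, replicates 1 and 3, from the labels) were analysed as peak lists on dm6. Per the notes beside the files, the authors made a relaxed list for each replicate and for both pooled, then an optimal set by the irreproducible discovery rate method. The aligner, peak caller, read depth and threshold were not given in the sources used here. Within a list, peaks are ranked by the authors' deposited signal value, and the deposited −log10 q-value is that of their peak caller. The dm3 lists were not used.

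Summits were annotated with Ensembl release 115 genes and the NCBI Release 6 sequence, with promoters first, then coding exons, UTRs, noncoding exons, introns and intergenic sequence. Overlap meant at least 1 shared base. Two-sided Fisher's exact tests over peaks used sample odds ratios with Woolf 95% intervals and Benjamini-Hochberg adjustment over 7 classes or 26 motifs, at 0.05. Shares carry exact Clopper-Pearson intervals, which cover counting error only. Members, motifs and the 37 gene lists were chosen with earlier results of these data known. Of the listed symbols 4 matched no annotated gene (calypso, Vgl4, taiman, ladybird), and 1 gene that the rule names is not reported here. Named were the nearest genes of the 25 strongest peaks and of the strongest 10 intronic, 10 intergenic and 5 coding exon peaks, all KLF and SP genes, up to 4 genes per other list by signal, the 10 genes with most summits, the 10 best and 5 most different peaks by replicate rank, and the 5 peaks on each side of the lower edge. Further genes were named where a count was small or as neighbours of these. Sequences shown are 4 of the 12 that the rule gave. The motif test and annotation were tested on simulated data. Alternatives were replicate lists alone, the upper and lower ranks, distance from optimal peaks, other promoter and window sizes, GC strata, promoter or distal summits and, chosen after seeing the data, removal of overlapping peaks. Software was SciPy 1.17.1, statsmodels 0.14.6, NumPy 2.4.6, pandas 2.3.3 and matplotlib 3.10.9 under Python 3.11.15.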

Additional observations from a re-analysis of the deposited data

How the results depend on the processing

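No paired analysis was possible because there is 1 group and the tests run over peaks. Of the alternative values of contrasts and of counts of calls, 91 were kept and 10 moved. Kept means the same side of the threshold, or within 1.5 times for counts. No contrast changed direction with either value past the threshold. The X ratio against lower-ranked peaks went from 1.01 to 0.984 in replicate 1 alone, with neither past it. Of 222 values of single motifs (those called, and DRE), 150 stayed on the same side of the threshold, 68 lost the call and 4 turned. A turn was counted only where the main or the alternative value was called. DRE against optimal peaks went from 1.12 to 0.859 in replicate 3 alone with neither called, and was not counted. The 4 counted turns were all against lower-ranked peaks. At distal summits they were CGATA (0.944) and CAGCTG (0.828). The others were the forkhead site (0.970) against the 3350 ranks just below, and CAGCTG in replicate 3 alone (0.983). In replicate 1 alone CAGCTG kept its direction (1.21). The promoter, upstream and divergent contrasts passed the test under every alternative run, and the X contrast under none. In replicate 1 or 3 alone the location classes called against optimal peaks numbered 4 to 5, and the motifs called 0 to 7. Against lower-ranked peaks those lists gave 5 to 5 classes and 10 to 13 motifs, and 2066 to 2283 genes with a next-ranked promoter summit. The motifs called against optimal peaks numbered 1 in the stronger 1675 ranks of the band, 1 within strata of GC content and promoter class, and 0 at distal summits. Against lower-ranked peaks they numbered 7 in the weaker 1675 ranks, 4 against the 3350 ranks just below, 7 within strata and 7 at distal summits. Fewer peaks entered the rank and distal alternatives. The cause of the other changes was not tested. The share in both replicate lists was 80.9% with summits within 100 bp. Without the 67 next-ranked peaks that share a base with a stronger peak, the motifs called were 4 against optimal and 13 against lower-ranked peaks. Read depth is unknown.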
